A study of Zea mays with 19 samples.

Results

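The unnamed candidates of 20 to 22 nt are small RNAs from germinating maize embryos that the authors list without a miRBase name. They were chosen as the sequences whose name starts with PC and whose length is at most 22 nt, with the counts of all precursor entries of a sequence summed. The rule gave 121 of 528 sequences, on 154 of 782 table entries. Of the 121 candidates, 100 have 21 nt, 19 have 22 nt and 2 have 20 nt, and no candidate of 18 or 19 nt was listed. The other sequences are 160 unnamed candidates of 23 nt or longer, 96 with a maize name and 151 named after another species.

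Small RNAs were sequenced from embryos dissected from 5 seeds per sample, in 6 groups of 3 libraries that the series calls biological replicates. The late line, Yu537A, was sampled at 53 h after imbibition with gibberellin (GA3, a plant hormone given at 400 mg/L), and without a stated treatment at 6 h, 53 h and 78 h. The early line, Yu82, was sampled without treatment at 53 h and at 6 h. Both are inbred lines bred from the population Yuzong5, and each germination class is represented by 1 line, so the line and its germination class cannot be told apart. The treatment text speaks of a GA3 pretreatment of Yu537A without naming groups. As the series design calls a single group treated, the remaining late-line groups count as untreated here. A degradome library, which captures the 5′ ends of cleaved transcripts, belongs to no group.

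Plant miRNAs are cut by Dicer-like enzymes from a transcript that folds back into a hairpin, as a duplex whose strands end in short 3′ overhangs. The strand kept by an ARGONAUTE protein guides cleavage of complementary mRNAs, and the first base of the small RNA helps decide which ARGONAUTE takes it up: AGO1 favours a 5′ U, whereas AGO4, which binds the longer siRNAs of heterochromatin and transposons, favours a 5′ A. Hairpins of inverted repeats can also yield small RNAs of miRNA length, so a fold-back alone does not make a sequence a miRNA.

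The 7 candidates that the comparisons below turn on are the 3 with the highest mean level and the others that passed a test, shown 5′ to 3′ as DNA letters with the seed, bases 2 to 8, in capitals.
PC-5p-5182_671: cTTCCGACtcaacacgattcgt
PC-3p-6907_517: tGCGGGTGggacctatcttcc
PC-3p-6867_520: tCAATCCCctccattaccctt
PC-5p-8760_411: aATCCCCTtcaggattggagg
PC-3p-12284_291: aGCCCCTTcaaccccttcggt
PC-5p-18068_190: tTAAATCTcctccgggattcc
PC-3p-23456_139: aCACGGTGgcaagatcacgtc

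Seeds were rarely shared. The 121 candidates carry 112 different seeds, 8 of which are shared by 17 candidates, and no candidate has the seed of a named sequence of the table. None matched a named sequence with at most 2 mismatches over at least 17 bases and an overhang of at most 3. Different seeds need not mean distinct small RNAs, as a shift of 1 base changes the seed. For example, PC-5p-34421_83 and PC-5p-48855_47 are shifted by 1 base and match over 20 bases with 0 mismatches. The seed held by the most candidates, 3 of them, is shown in capitals here because its carriers were listed in different lines.
PC-3p-29564_103: aTTTTAGCccctccaatctcc
PC-3p-30668_98: aTTTTAGCccctccaatctcg
PC-3p-46255_52: aTTTTAGCccttccaatcccc

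PC-3p-29564_103 and PC-3p-30668_98 differ by the substitution C21G, counted from the 5′ end. By the same C21G, PC-3p-30668_98 differs from both of its own hairpins, whereas PC-3p-29564_103 matches its hairpins exactly. PC-3p-29564_103 was listed in 6 late-line libraries and in 0 of 6 early-line libraries, whereas PC-3p-30668_98 was listed in 1 late-line library (GA3 replicate 1, with 61 counts) and in 5 early-line libraries with 8 to 22 counts. The 2 sequences thus stood in largely different libraries. Reads this alike may be assigned between each other's loci in the authors' counting, so both are uncertain, as are the other sequences in the 21 near-identical pairs.

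The hairpins of the 5 candidates past a threshold were read from the authors' deposited table, and the capitals mark where the small RNA lies. Positions are those of the deposited table, whose genome build no source used here gives. No gene annotation of that build was used, so it was not determined whether the loci lie in genes.
PC-3p-12284_291, chr3:181709193-181709320, + strand: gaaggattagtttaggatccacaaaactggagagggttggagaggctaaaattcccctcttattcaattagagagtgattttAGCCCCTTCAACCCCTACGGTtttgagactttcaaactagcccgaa
PC-5p-8760_411, chr1:151683577-151683703, + strand: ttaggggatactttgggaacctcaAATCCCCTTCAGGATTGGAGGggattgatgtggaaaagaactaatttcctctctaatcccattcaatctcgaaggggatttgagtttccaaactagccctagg
PC-5p-18068_190, chr5:155591860-155591983, + strand: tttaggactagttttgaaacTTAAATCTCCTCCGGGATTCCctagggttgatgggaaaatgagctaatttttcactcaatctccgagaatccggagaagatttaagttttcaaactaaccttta
PC-3p-23456_139, chr9:145888825-145888981, + strand: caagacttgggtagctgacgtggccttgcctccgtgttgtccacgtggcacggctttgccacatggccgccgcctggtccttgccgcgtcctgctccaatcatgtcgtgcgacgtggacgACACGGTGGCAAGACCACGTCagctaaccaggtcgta
PC-5p-5182_671, chr5:21061932-21062094, - strand: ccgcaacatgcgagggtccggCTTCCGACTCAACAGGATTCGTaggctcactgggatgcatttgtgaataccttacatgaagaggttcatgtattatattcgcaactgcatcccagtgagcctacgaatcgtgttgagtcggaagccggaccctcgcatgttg

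Of the 121 candidates, 89 match their hairpin exactly and 32 differ from it by 1 base. Given as the hairpin's base, the position in the small RNA and the base of the small RNA, PC-3p-12284_291 carries A17T, PC-3p-23456_139 carries C15T and PC-5p-5182_671 carries G15C. PC-5p-5182_671 is the 1 candidate among these 32 whose sequence matches the other strand of its hairpin with no mismatch. One-base differences were found in 8 of 30 candidates listed in the early line alone, 15 of 49 listed in the late line alone and 9 of 42 listed in both. PC-5p-18068_190 has a further hairpin at chr7:118539769-118539893 (+ strand), and 33 candidates have 2 precursor entries. The hairpin of PC-3p-23456_139 overlaps by 68 bases the hairpin of PC-5p-16585_210 on the opposite strand (chr9:145888914-145889081), 1 of 3 such overlapping pairs.

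The candidates differed from the longer candidates in first base and had the same median hairpin energy index. A 5′ U was found in 81 of the 121 (66.9%), against 3.13% of the candidates of 23 nt or longer, 57.3% of the sequences with a maize name and 53.6% of those named after another species. A 5′ A was found in 23.1% of them and in 95.6% of the longer candidates, of which 98.1% have 24 nt; it was found in 14.6% of each class of named sequences. A 5′ G, in contrast, was found in 1.65% of the candidates and 1.25% of the longer ones, against 18.8% of the maize names and 18.5% of the names from other species. Within the 121 candidates, 70 of the 100 with 21 nt and 11 of the 19 with 22 nt start with U. The lengths define the classes and are no result, but the first base was not used to define them.

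**Figure D1:**
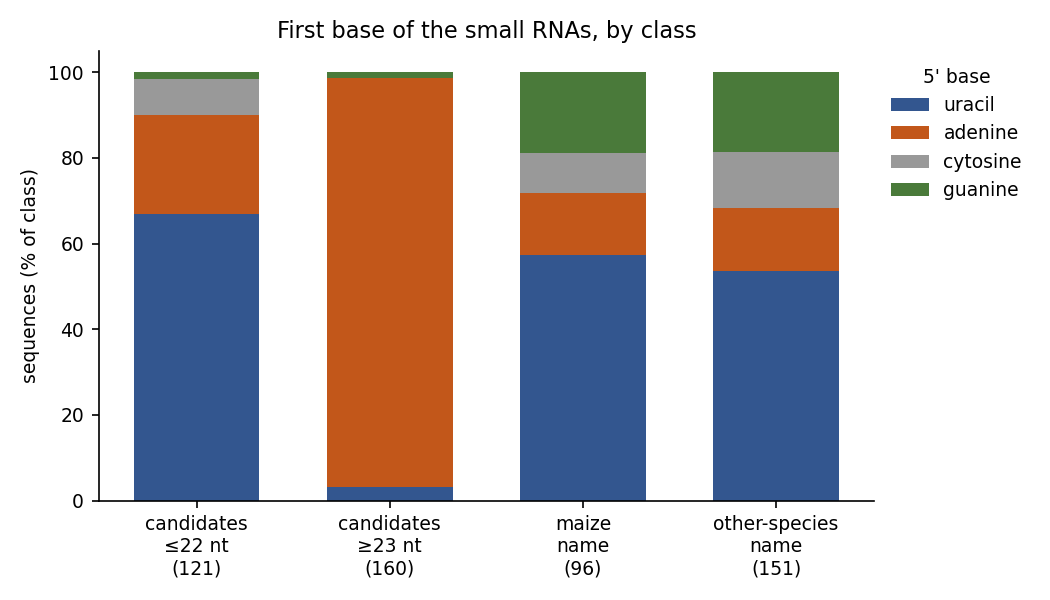
Percentage of sequences (y axis) in each of 4 classes (x axis, number of sequences in brackets) that start with each base; the stacked colours are the 4 bases. Uracil is the first base of 66.9% of the candidates of at most 22 nt, whereas adenine is the first base of 95.6% of the longer candidates.

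In the authors' deposited table the candidates' hairpins had a median folding energy index (MFEI, the folding energy corrected for length and GC content) of 1.3, with a range of 0.9 to 2.2. The median was likewise 1.3 for the longer candidates, 0.9 for sequences with a maize name and 0.6 for those named after another species. Hairpin length had a median of 143.5 nt for the candidates and 126 nt for sequences with a maize name. All 121 were placed in the authors' class of reads that match no miRBase precursor and were found through the genome, for which the file headers name a hairpin as the criterion, so the index is not independent of how they were found.

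Both arms of a hairpin were listed for 5 hairpins. The pair PC-5p-47155_50 and PC-3p-32695_89 (chr7:167303654-167303859, - strand) had 25 and 176 counts in all and was listed together in 3 libraries. It is shown with the bases that pair with the other arm in capitals, 17 base pairs in the deposited fold.
PC-5p-47155_50: TGTGTGTCTAGACCcaCTTgc
PC-3p-32695_89: AAGgaGGTcCTGGACACATAag

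The overhangs at the 3′ ends of this duplex, given for the 3p and then the 5p arm, are 2 and 2 nt, as they are for PC-5p-112893_9 with PC-3p-56097_37 (9 and 37 counts). In the other 3 duplexes the 3′ overhangs were 1 and 1 nt (PC-5p-86534_14 with PC-3p-33561_86), 0 and 0 nt (PC-5p-65317_27 with PC-3p-101273_10), and 1 and -2 nt (PC-5p-104960_9 with PC-3p-123230_8, which has 24 nt and is not among the 121). Dicer-like products carry a 3′ overhang of 2 nt at each end, so 2 of the 5 listed duplexes had that geometry.

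A further likeness is in sequence. With candidates linked wherever they share a word of 11 bases on either strand, the largest linked set held 27 of the 121 candidates. The set was drawn up after the sequences had been seen and depends on the word length: it held 32 candidates with words of 10 bases, 21 with 12 and 5 with 13. It holds 3 of the 7 candidates printed first, PC-3p-6867_520, PC-5p-8760_411 and PC-3p-12284_291. Some of its members are shown with a recurring word in capitals: CCCCTCCAAT, the word of 10 bases found in the most candidates, AATCCC, or its reverse complement GGGATT.
PC-3p-12036_297: tCCCCTCCAATtccctctggt
PC-3p-42125_61: tagCCCCTCCAATccacttca
PC-3p-53540_40: tcctcaatCCCCTCCAATtcc
PC-3p-20816_161: tttAATCCCcctcaatcccct
PC-3p-63184_29: AATCCCcttcaaccccgaaga
PC-5p-34421_83: atgaagGGGATTgaggggtta
PC-5p-67376_25: tcgaagGGGATTggagaggtt

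Searched on both strands, the word AATCCC occurs in 26 of the 121 candidates (21.5%), 20.6% of the longer candidates, 2.08% of sequences with a maize name and 1.99% of those named after another species. The word CCCCTCCAAT occurs in 9 candidates (7.44%), 3.75% of the longer candidates and 0 named sequences. It was picked for being the most frequent among the candidates, so a higher share there is built in. AATCCC was chosen by no rule set in advance. Of the longer candidates, 21 of 160 (13.1%) share a word of 11 bases with the set, against 0 of 96 sequences with a maize name and 0 of 151 named after another species. These counts are descriptions of letters and identify no origin.

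The smallest library, replicate 3 of the early line at 53 h, held 42959 counts and the largest, replicate 1 of the late line at 53 h, held 818817, and 110 to 380 sequences were listed per library. There were no molecular identifiers, and these depths bear on counting error and on which sequences could be listed. The candidates had few counts: the median over the 121 was 49 counts in all 18 libraries together and the highest total was 1140, against a median of 728 for sequences with a maize name. Among the 577 values above 0 of the candidates, 34 were below 8 and 62 were exactly 8, and 107 of the 121 candidates have no listed value below 8. A 0 therefore stands for anything up to about 8 counts and does not show absence. As these are whole embryos, fewer cells of a type and less RNA per cell cannot be told apart. No embryo cell type has agreed miRNA markers. The families miR2118, miR2275 and miR482 were taken as a list of triggers of phased siRNAs in reproductive tissue, whether or not each acts so in maize. Their summed counts in the late line were 32 to 164 with GA3, 0 to 71 at 6 h, 14 to 101 at 53 h and 18 to 104 at 78 h. In the early line they were 94 to 235 at 53 h and 69 to 116 at 6 h. The part of these families in the results was not tested.

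No candidate was listed in all 18 libraries. PC-5p-5182_671 and PC-3p-6907_517 were listed in 16, 23 candidates in at least 9, and 24 in 1 library alone, which for 12 of these 24 was the deepest library. The number of candidates listed was 37 to 55 with GA3, 5 to 28 at 6 h, 3 to 75 at 53 h and 17 to 44 at 78 h in the late line, and 15 to 49 at 53 h and 39 to 42 at 6 h in the early line.

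The candidates together held a small share of all listed counts. The share was 0.255% ± 0.0949 in the late line with GA3, 0.113% ± 0.0456 at 6 h, 0.158% ± 0.117 at 53 h and 0.175% ± 0.0199 at 78 h in the untreated late line, and 0.473% ± 0.0743 at 53 h and 0.378% ± 0.0246 at 6 h in the early line (mean ± SD, n = 3 each). The lowest early-line library, at 0.355%, lay above all 12 late-line libraries, of which GA3 replicate 1 was the highest at 0.352%. With the miR166 family left out of the totals the lines overlapped, at 0.857% in the lowest early-line library and 0.953% in GA3 replicate 1. The summed levels after TMM scaling overlapped too: they were 2702 ± 576 CPM with GA3, 1499 ± 625, 2211 ± 1935 and 2179 ± 952 CPM in the late line at 6, 53 and 78 h, and 2948 ± 1093 and 2990 ± 327 CPM in the early line at 53 h and 6 h. CPM here is the count over the library's TMM-scaled total, times 1e+06. The TMM factors were 1.08 to 2.13 in early-line libraries and 0.600 to 1.09 in late-line ones. A larger factor lowers the level, so the overlap in CPM is not independent of the scaling.

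**Figure D2:**
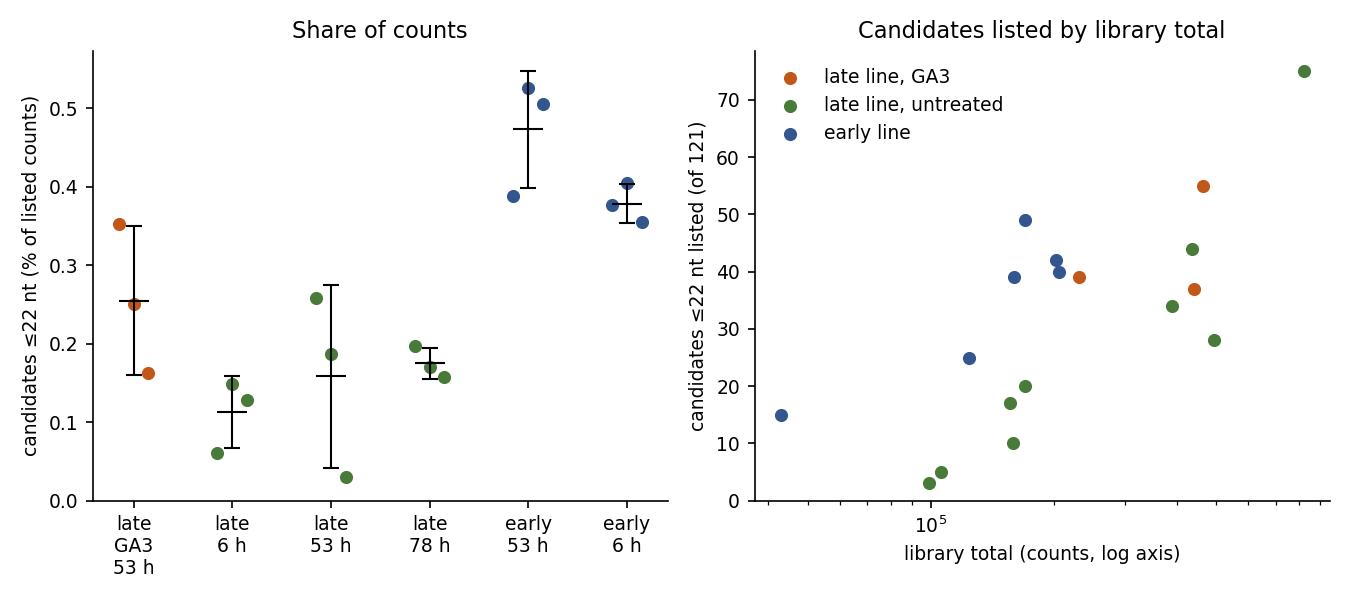
Left, percentage of listed counts held by the candidates of at most 22 nt (y axis) in each library (points) by group (x axis), with mean and SD in black; all early-line points lie above the late-line ones. Right, number of the 121 candidates listed (y axis) against library total in counts (log x axis), from 3 candidates in late line 53 h replicate 3 to 75 in replicate 1 of the same group.

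The candidates of 22 nt made up 16.9 to 48.3% of the candidates' counts in the 12 late-line libraries and 8.76 to 15.4% in the 6 early-line libraries, with no overlap between the lines. The lack of overlap rested on 1 sequence: without PC-5p-5182_671 the shares were 0 to 37.6% in the late line and 8.76 to 15.4% in the early line. The late-line shares under 15.4% were 0 in 6 h replicate 1 and 53 h replicate 3, with 46 and 18 candidate counts left, 6.33% in 78 h replicate 2 and 13.4% in GA3 replicate 1. The remaining late-line libraries had 16.6 to 37.6%.

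PC-5p-5182_671 was the most abundant candidate. It had 57, 111 and 84 counts in the late line with GA3, then 19, 126 and 47 at 6 h, 298, 109 and 12 at 53 h, and 115, 30 and 21 at 78 h in the untreated late line, against 0, 9 and 0 at 53 h and 34, 26 and 42 at 6 h in the early line. It was listed in all 12 late-line libraries and, in the early line at 53 h, in 1 library only. After scaling, its mean level was 246 ± 18.4 CPM with GA3, 322 ± 62.7, 344 ± 234 and 249 ± 165 CPM in the late line at 6, 53 and 78 h, and 14.1 ± 24.4 and 144 ± 42.1 CPM in the early line at 53 h and 6 h. PC-3p-6907_517, from a pair of hairpins on chromosomes 2 and 9, had a like profile: 26, 77 and 81 counts with GA3, 10, 64 and 25 at 6 h, 160, 64 and 10 at 53 h, 48, 15 and 11 at 78 h in the late line, and 0, 10 and 0 at 53 h and 10, 38 and 12 at 6 h in the early line. Its late-line levels at 53 h did not overlap those of the early line, yet its difference missed the threshold (log2 fold change 3.56, SE 1.22, adjusted p = 0.0629 in edgeR's quasi-likelihood test).

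The question of the comparison between the lines is which small RNAs differ between a late and an early germinating embryo at the same time. Counts of all sequences were tested with edgeR's quasi-likelihood F test (two-sided), adjusted over the 223 sequences that passed a filter on low counts. The filter kept 43 of the 121 candidates; the 78 left out had a median of 25 counts in all. At 6 h, 0 of the 43 tested candidates were higher and 4 were lower in the late line. Over all 223 sequences tested, which include these candidates, 6 (2.69%) were higher and 9 (4.04%) lower. At 53 h, 1 of the 43 was higher and 3 were lower, beside 15 (6.73%) higher and 9 (4.04%) lower over the 223. The median log2 fold change of the tested candidates was -4.91 at 6 h and -1.28 at 53 h, beside -0.30 and 0.11 over all 223 sequences. Of the 43, 25 were at 0 in every late-line library and 7 in every early-line library at 6 h. At 53 h these numbers were 14 and 11. With zeros taken as 0, the libraries of 2 tested candidates lay higher and those of 18 lower in the late line at 6 h without overlap. Over all 223 sequences 19 lay higher and 43 lower. For 53 h it was 3 higher and 10 lower, beside 42 and 37 over all sequences. The size of a fitted change against a group at 0 depends on a small count added in the fit, so the medians give no fold. As a candidate could pass the filter through the line in which it is high, neither the counts nor the medians describe all 121. Scaling by library totals in place of TMM shifted the median over all sequences to -1.03 at 6 h and -0.78 at 53 h.

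PC-3p-12284_291 had 0 counts in all 12 late-line libraries, against 31, 50 and 17 in the early line at 53 h and 57, 72 and 64 in the early line at 6 h. Every early-line library was above every late-line library. The late line was lower at 6 h (log2 fold change -9.03, SE 1.71, adjusted p = 0.0125) and at 53 h (-8.52, SE 1.58, adjusted p = 0.0121). Fitted changes against a group at 0 depend on the prior count. Taken against 8 counts per library, it was at least 4.29-fold lower at 6 h and at least 4.72-fold lower at 53 h, which holds if listing began at 8 counts or fewer.

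PC-5p-18068_190 also had 0 counts in all 12 late-line libraries, against 51, 48 and 25 in the early line at 53 h and 24, 17 and 25 in the early line at 6 h. The late line was lower at 6 h (adjusted p = 0.0440, at least 1.47-fold) and at 53 h (adjusted p = 0.0131, at least 6.16-fold). PC-3p-23456_139 likewise had 0 counts in the late line, against 20, 20 and 11 at 53 h and 32, 21 and 35 at 6 h in the early line. The late line was lower at 6 h (adjusted p = 0.0440, at least 1.97-fold) and at 53 h (adjusted p = 0.0258, at least 2.57-fold). For both, the zeros of late-line replicate 1 at 6 h do not separate the lines there, since 8 counts in that library are 105 CPM and the early line at 6 h had 69.2 to 112 CPM of PC-5p-18068_190 and 85.5 to 157 CPM of PC-3p-23456_139. With PC-3p-12284_291, these 2 were the candidates listed in all 6 early-line libraries and in none of the late line. The share of all sequences with this pattern is not given here.

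PC-5p-8760_411 was not confined to 1 line. Its counts were 39, 22 and 17 with GA3, then 0, 0 and 0 at 6 h, 9, 19 and 0 at 53 h and 0, 14 and 20 at 78 h in the untreated late line, against 50, 60 and 43 at 53 h and 49, 39 and 30 at 6 h in the early line. The late line was lower at 6 h (log2 fold change -8.31, SE 2.05, adjusted p = 0.0220, at least 2.60-fold). At 53 h the late line had 24.8 ± 28.9 CPM and the early line 329 ± 125 CPM, and it did not pass the threshold there.

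PC-5p-5182_671 was the candidate that was higher in the late line, at 53 h (log2 fold change 4.44, SE 1.08, adjusted p = 0.0131). All 3 late-line libraries lay above all 3 early-line libraries. At 6 h the late line had 322 ± 62.7 CPM and the early line 144 ± 42.1 CPM, which did not pass the threshold.

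**Figure D3:**
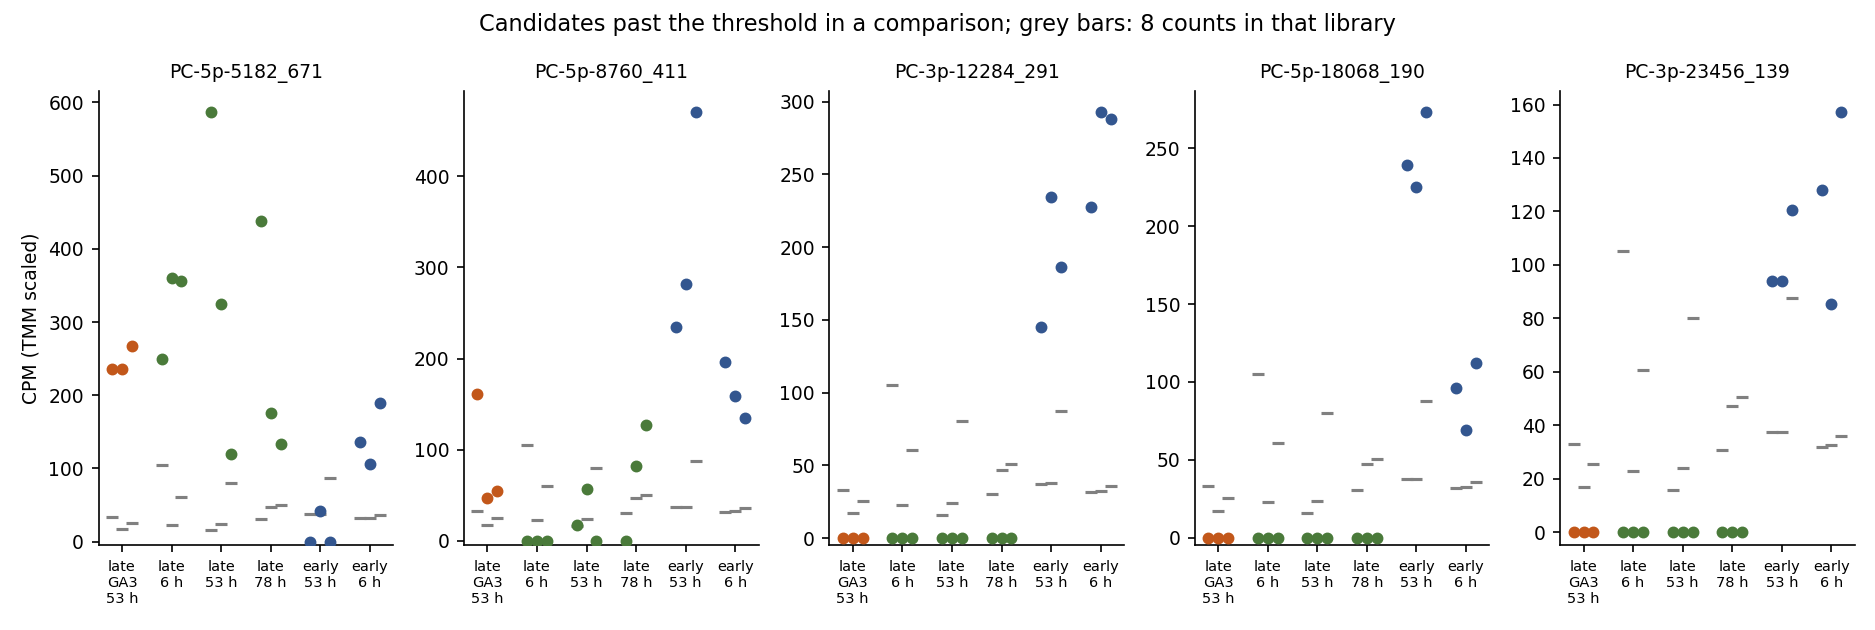
Level in CPM, scaled by TMM (y axis, a separate scale per panel), of the 5 candidates past the threshold in a comparison, in each library (points; x axis, group), with short grey bars at the level of 8 counts in that library. PC-3p-12284_291, PC-5p-18068_190 and PC-3p-23456_139 are at 0 in all 12 late-line libraries and above 0 in all 6 early-line libraries.

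The calls at 6 h rested on few libraries. Without an early-line replicate, 2 (replicate 1), 2 (replicate 2) or 0 (replicate 3) candidates were called, and without late-line replicate 2 or 3 it was 1 each; PC-3p-12284_291 was lost only without early-line replicate 3 or without the 3 late-line libraries that list the fewest sequences. At 53 h, 1 candidate was called without early-line replicate 1 and 2 without replicate 3. Calls over all sequences in these fits are not given here. Each called candidate kept its direction in all 13 alternatives tried, and the counts that follow are of calls. At 6 h, PC-3p-12284_291 was called in 11 of the 13, PC-5p-8760_411 in 8, PC-5p-18068_190 in 5 and PC-3p-23456_139 in 3. At 53 h, PC-3p-12284_291 was called in 13, PC-5p-18068_190 in 12, PC-5p-5182_671 in 10 and PC-3p-23456_139 in 7.

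Listing is a description without a test, over 12 late-line and 6 early-line libraries of unequal depth. Of the 121, 49 (40.5%) were listed in the late line alone, 30 (24.8%) in the early line alone and 42 in both. Over all 528 sequences the shares were 38.1% in the late line alone and 14.4% in the early line alone. Among the late-only candidates are those 12 that were listed in the deepest late-line library and nowhere else. The 9 candidates listed in at least 6 late-line libraries and in no early-line library were PC-3p-12036_297, PC-5p-17045_203, PC-3p-20512_164, PC-3p-29564_103, PC-3p-22983_143, PC-5p-34421_83, PC-5p-34006_84, PC-3p-33561_86 and PC-3p-24127_135. PC-3p-12036_297, for example, had 65, 32 and 26 counts with GA3, 0, 24 and 18 at 6 h, 43, 30 and 0 at 53 h, and 20, 11 and 28 at 78 h in the late line. Its groups overlap with the early line's zeros at 6 h and 53 h, and it did not pass the threshold (adjusted p = 0.0645 at 6 h and 0.0629 at 53 h). PC-5p-17045_203 gave 13, 28 and 22 counts with GA3, 0, 15 and 18 at 6 h, 38, 24 and 0 at 53 h, and 15, 20 and 10 at 78 h in the late line, and missed it likewise (adjusted p = 0.0645 and 0.0629). PC-3p-34637_82 and PC-3p-42125_61 were listed in 5 early-line libraries and in none of the late line. How many of all 528 sequences were listed in these ways is not given here, so the patterns are not shown to be particular to the candidates.

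**Figure D4:**
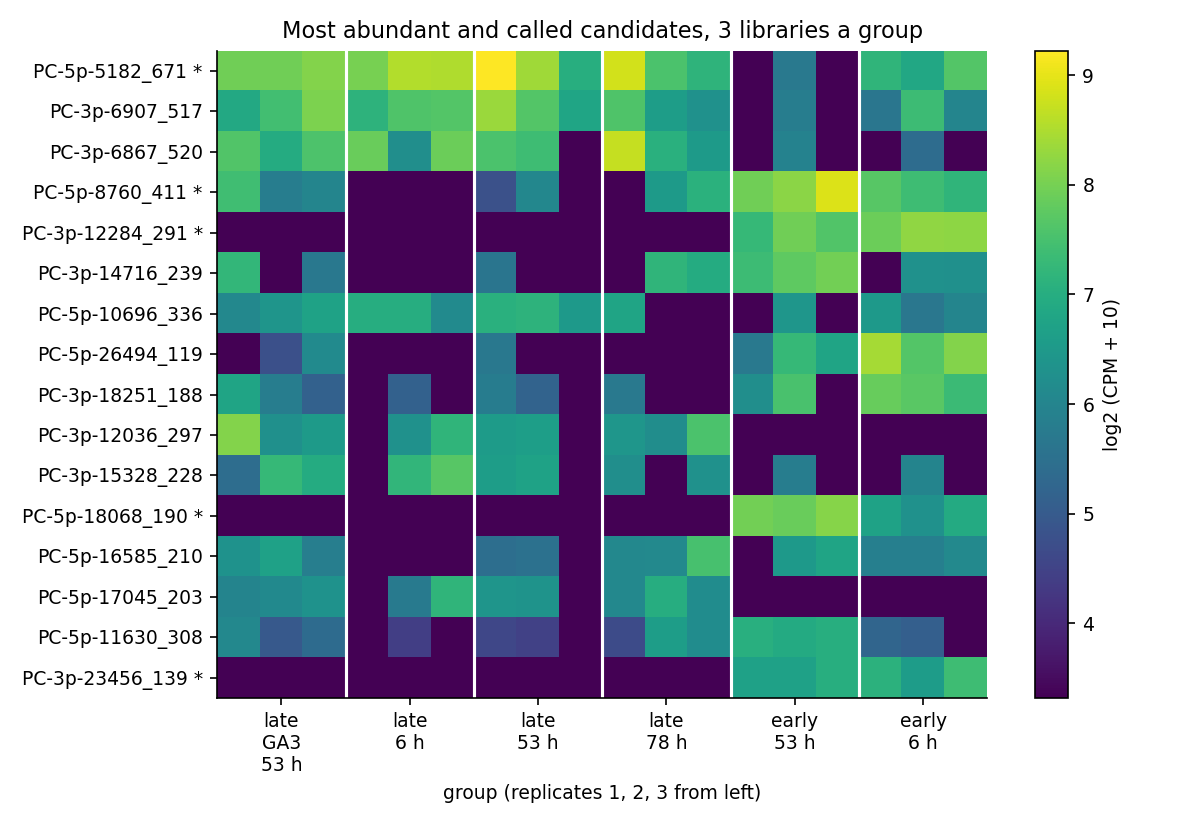
Level as log2(CPM + 10) (colour) of 16 candidates (rows: the 15 with the highest mean level and 1 further called candidate; an asterisk marks those called) in 18 libraries (columns, 3 per group). PC-3p-12036_297 and PC-5p-17045_203 are dark, at 0, in all 6 early-line columns, and PC-3p-12284_291, PC-5p-18068_190 and PC-3p-23456_139 in all 12 late-line columns.

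By list, the 4 candidates lower at 6 h were all of 21 nt, the length of 34 of the 43 tested. Of these 4, 3 start with A and 1 with U, where 12 and 27 of the tested candidates do. The 3p and the 5p arm gave 2 each, of 28 and 15 tested. The candidate higher at 53 h has 22 nt and starts with C, as do 9 and 3 of the tested candidates. The linked set of 27 had 14 tested, of which 2 were lower at 6 h and 1 at 53 h. Of 15 tested candidates with 2 precursor entries, 1 was lower at each time. Of 16 tested candidates with 1 base of difference from the hairpin, 2 were lower at 6 h, and at 53 h 1 was higher and 2 were lower. Neither candidate of 20 nt was tested.

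GA3 was compared with no treatment in the late line at 53 h. No candidate passed the threshold, and 0% of all sequences did. At an unadjusted p under 0.05 there were 2 of the 43 tested candidates, beside 9 of all 223 sequences, and DESeq2 called 0 candidates. PC-5p-27644_113 had 30, 12 and 0 counts with GA3 and 0 in the 3 untreated libraries (unadjusted p = 0.0211). PC-3p-30668_98 had 61, 0 and 0 counts with GA3 and 0 in the untreated libraries (unadjusted p = 0.0319), so its value comes from 1 library. The groups overlap for both. PC-5p-11630_308 had 14, 10 and 10 counts with GA3 and 7, 4 and 0 without (37.0 and 8.57 CPM on average). With zeros taken as 0, the libraries of 4 tested candidates did not overlap, all of them higher with GA3, as for 10.8% of all sequences tested, in either direction. All 4 were at 0 in untreated replicate 3, where 8 counts are 80.3 CPM, so their separation is not shown.

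By listing, 12 candidates were listed with GA3 and in none of the untreated libraries at 53 h, and 19 the other way round, all 19 of them in untreated replicate 1 alone, the deepest library. These are 9.92% and 15.7% of the candidates, beside 7.95% and 19.3% of all 528 sequences. PC-5p-8760_411, 1 of the 4 candidates lower in the late line at 6 h, averaged 87.4 ± 64.1 CPM with GA3 and 24.8 ± 28.9 CPM without, and the groups overlap.

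Time was compared within each line. In the early line at 53 h against 6 h, 0 candidates passed the threshold, and over all sequences 1.35% did, all of them higher at 53 h. An unadjusted p under 0.05 was found for 4 of the 43 tested candidates, beside 33 of all 223 sequences, and DESeq2 called 1 candidate. PC-5p-5182_671 had the lowest p (0, 9 and 0 counts at 53 h against 34, 26 and 42 at 6 h; log2 fold change -3.17, SE 1.03, adjusted p = 0.134). It was called without early-line 53 h replicate 2, the library with 9 counts, at a fitted log2 fold change of -8.10, where 2 candidates in all passed. PC-3p-41281_63 was at 0 in the 3 libraries at 53 h, against 20, 18 and 25 counts at 6 h (adjusted p = 0.187). It is 1 of 5 candidates listed in all 3 libraries at 6 h and none at 53 h, with PC-3p-20825_161, PC-3p-22095_151, PC-3p-53041_41 and PC-3p-74822_20 (4.13% of the candidates and 2.27% of all sequences). The opposite pattern was found in 0 candidates and in 1.52% of all sequences. With zeros taken as 0, the libraries of 7 tested candidates lay higher at 53 h without overlap and those of 6 lower, where 26.5% of all sequences did not overlap in either direction. PC-5p-11630_308, among those higher, had 26, 24 and 11 counts at 53 h, against 7, 6 and 0 at 6 h.

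In the late line at 53 h against 6 h, 0 candidates passed the threshold, and 1.79% of all sequences did (1.35% higher and 0.448% lower). An unadjusted p under 0.05 was found for 3 of the 43 tested candidates, beside 20 of all 223 sequences, and DESeq2 called 0 candidates. The lowest p was that of PC-5p-8760_411, with 9, 19 and 0 counts at 53 h against 0, 0 and 0 at 6 h (unadjusted p = 0.0119). Next came PC-5p-16585_210, whose hairpin overlaps that of PC-3p-23456_139, with 17, 12 and 0 counts at 53 h against 0, 0 and 0 at 6 h (unadjusted p = 0.0133). Their groups overlap at 0. With zeros taken as 0, the libraries of every tested candidate overlapped between these groups, and 8.07% of all sequences did not overlap. Only a candidate listed in all 3 libraries of a group can lie above the other group. Just 3 candidates were so listed at 53 h and 4 at 6 h, tested or not. Most candidates therefore could not have separated, and their overlap does not set them apart from the other sequences. No fold is given for PC-5p-8760_411 or PC-5p-16585_210, as both groups lie near the 8 counts at which listing seems to begin.

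In the late line at 78 h against 53 h, 0 candidates and 0% of all sequences passed the threshold, and DESeq2 called 0 candidates. An unadjusted p under 0.05 was found for 1 of the 43 tested candidates, beside 17 of all 223 sequences. That candidate, PC-5p-26494_119, was listed with 0, 0 and 0 counts at 78 h against 21, 0 and 0 at 53 h, so it rests on 1 library (unadjusted p = 0.0422). For PC-5p-11630_308 they were 4, 15 and 10 at 78 h, against 7, 4 and 0 at 53 h (unadjusted p = 0.113).

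Whether the change from 6 h to 53 h differs between the lines was tested as an interaction. No candidate and 0% of all sequences passed. An unadjusted p under 0.05 was found for 5 of the 43 tested candidates, beside 17 of all 223 sequences, and DESeq2 called 0 candidates. The lowest p belonged to PC-5p-5182_671 (log2 difference of changes, late minus early, 3.27, SE 1.35, adjusted p = 0.570) and PC-5p-16585_210 (5.38, SE 2.29, adjusted p = 0.570). Without early-line 53 h replicate 2, 2 candidates passed, PC-5p-5182_671 among them with 8.15.

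The sequences whose log2(CPM + 10) ran most alike with the 3 most abundant candidates over the 18 libraries are given as a description; the libraries are the same and share their depth. For PC-5p-5182_671 they were PC-3p-6907_517 (Pearson's r = 0.938), zma-miR827-3p (0.880) and bdi-MIR528-p3_1ss21GT (0.879). For PC-3p-6907_517 they were PC-5p-5182_671, zma-MIR397b-p3 (0.873) and zma-MIR397b-p5 (0.866). For PC-3p-6867_520, which had 45, 54 and 57 counts with GA3, 17, 23 and 30 at 6 h, 90, 53 and 0 at 53 h and 106, 21 and 13 at 78 h in the late line and was listed in 2 of 6 early-line libraries, they were PC-5p-17045_203 (0.765), PC-3p-20512_164 (0.757) and zma-miR408a_L-1 (0.755). In plants miR827 acts in phosphate homeostasis, and miR397, miR408 and miR528 target mRNAs of copper proteins. These are roles of the families and were not examined for the single sequences named here, such as bdi-MIR528-p3_1ss21GT and zma-MIR397b-p3 from the 3p arm.

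The degradome table shows whether transcripts that pair with a small RNA were found cut at the expected place. In the authors' deposited table, 119 of the 121 candidates had 6057 alignments to transcripts, of which 168 (2.77%), from 29 candidates, had at least 1 degradome read. The share was 4.38% for the longer candidates, 20.9% for sequences with a maize name and 12.5% for those named after another species. The authors grade each site from category 0 to category 4, where 0 is by convention the strongest, and all the candidates' sites of category 4 had 1 read. The 168 fall under 49 locus IDs, 24 of them annotated gene models, so they are not 168 separate cuts. By the authors' deposited table, 127 of the candidates' 168 sites were of category 4, 39 of category 2, 2 of category 3 and none of category 0 or 1. Of the sites with reads, 27.8% were of category 0 or 1 for sequences with a maize name, 21.7% for those named after another species and 0% for the longer candidates. No candidate's site had a p under 0.05 (lowest 0.252), whereas 129 sites of maize-named sequences and 141 of those named after another species did; the authors do not describe these p-values as adjusted.

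**Figure D5:**
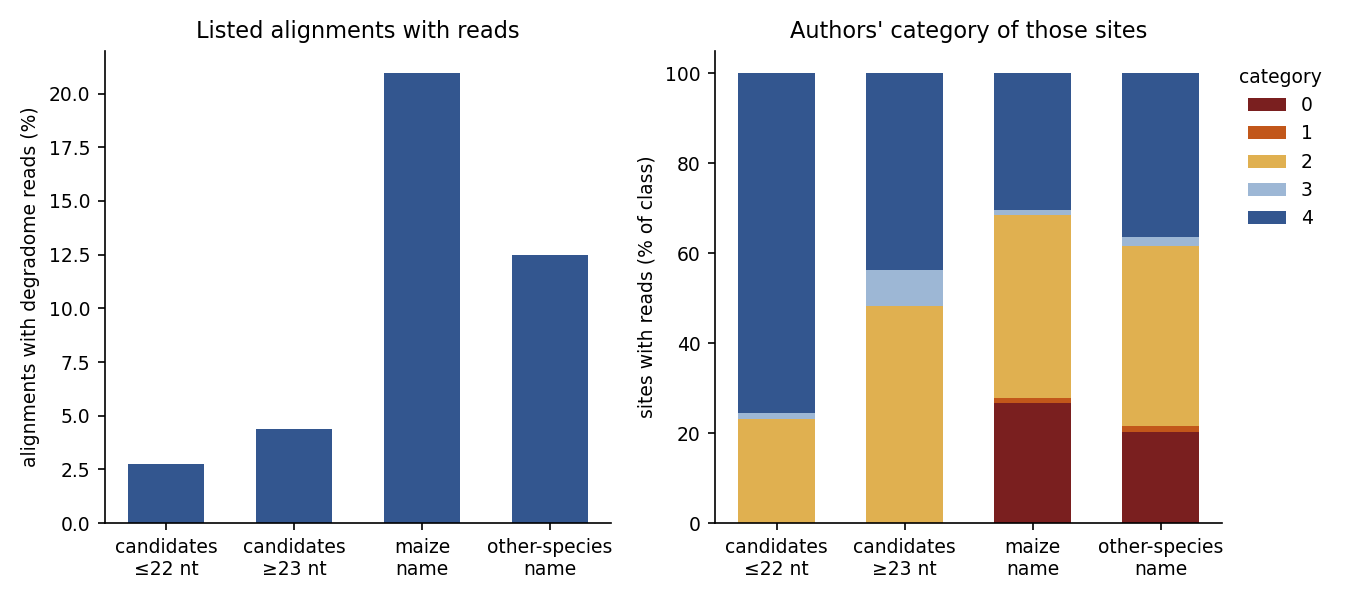
Left, percentage of listed transcript alignments with at least 1 degradome read (y axis) by class of small RNA (x axis). Right, percentage of those sites in each of the authors' categories 0 to 4 (colours); the candidates of at most 22 nt have no site in category 0 or 1.

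The most reads at a candidate's site were 17, in category 3, for PC-5p-67376_25 on the gene model Zm00001d039933, which the authors' deposited table annotates with protein turnover and chaperones (alignment penalty 4, p = 0.466). PC-3p-12284_291 had a site with 6 reads of category 2 on Zm00001d052259, of unknown function in the authors' deposited table (penalty 4, p = 0.967). The other called candidates, PC-5p-8760_411, PC-5p-18068_190, PC-3p-23456_139 and PC-5p-5182_671, had 37, 46, 9 and 2 alignments and no reads at any. Near-perfect pairing did not bring many reads. The candidates had 319 alignments with a penalty of at most 1 in the authors' deposited table, 180 of them, all without reads, from PC-3p-49797_46. Reads were found at 2 of these alignments for PC-5p-26494_119 (penalty 0, 1 read each). They were also found at 13 for PC-3p-33280_87 (penalty 0.5, at most 2 reads each). Those 13 are transcript models under 2 locus IDs, Zm00001d029818 and MSTRG.2431, so a cut can be counted once per transcript model. With 1 degradome library, whose tissue and groups are not in the labels used here, a site without reads was not detected at this depth and is not shown to be uncut.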

How the data were processed

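Small RNA libraries came from embryos of 2 maize lines, 6 groups of 3. The authors deposited expected counts per precursor entry, divided over entries that share a sequence; per the file headers, a sequence is the best-mapped read of its cluster, and the candidates are reads that match no miRBase precursor but lie in a genomic hairpin. A second set of deposited columns is a normalized signal, the count times a factor per library, and was not tested. In the degradome table the authors deposited read counts per site, 2 signal columns, a p-value per site, an alignment score (a penalty) and an other measure, the cleavage category. No source used here gives the mapping tools, their versions or the genome build. Of the miRNA and degradome tables, 9 and 5176 lines were empty and not analysed here.

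The 782 entries were summed per sequence to 536; 8 whose name stem and values equalled another's were merged, giving 528. The plan merged all sequences with equal values, which would have joined unrelated ones. Counts were rounded and tested in edgeR 4.0.16 (R 4.3.3): TMM scaling, filterByExpr at 10 counts, a group-means model over all 6 groups, quasi-likelihood F test, Benjamini-Hochberg over 223 sequences, threshold 0.05. Each SE was taken as log2 fold change divided by the root of F. Levels are CPM on TMM totals. The fit was tested on simulated data. DESeq2 1.42.0 was an alternative; Python 3.11.15 with pandas 2.3.3, numpy 2.4.6 and matplotlib 3.10.9 made tables and plots.

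Candidates named are the 15 with the highest mean CPM, all called, the 2 with the lowest p where fewer than 2 were called, and for the 3 most abundant the 3 most alike sequences; no candidate met the rule for degradome sites. Others were chosen after their values were seen. The candidates, lists and tests were chosen with earlier results of these data known. The labels do not say whether equal replicate numbers belong together. Deviations from group means correlated above 0.1 in each of the 3 number pairs only for the late line at 78 h against 53 h (0.452, 0.198 and 0.315), where 0 candidates were called with or without the replicate block. P-values measure the spread between the samples, which the series calls biological replicates. A match of the candidates to RefSeq miRNAs was not made.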

Additional observations from a re-analysis of the deposited data

How the results depend on the processing

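Each count of called candidates was recomputed with RLE size factors, library totals, no low-count filter, DESeq2, a replicate block, only the groups compared, and each replicate left out; leaving out the 3 late-line libraries that list the fewest sequences (6 h replicates 1 and 3, 53 h replicate 3) was chosen after seeing the data. For the late against the early line at 6 h, the 4 calls became 7 in DESeq2, 12 with only the groups compared, 2 with the replicate block, 0 without the 3 late-line libraries and 0 to 3 with a replicate left out. At 53 h, the 4 calls became 9 in DESeq2, 7 with only the groups compared, 7 without the 3 late-line libraries, 3 with the replicate block and 1 to 5 with a replicate left out. For the early line at 53 h against 6 h, 0 became 1 in DESeq2 and 0 to 2 with a replicate left out, and the interaction gave 0 to 2 with a replicate left out. The GA3 comparison and both time comparisons of the late line stayed at 0 in every alternative. The replicate block changed no other count. Settings that leave out libraries test more sequences, and the cause of the changes was not tested. These counts are of candidates alone. Without the calls over all sequences under the same setting, they do not show whether the candidates changed more than other sequences. No named change reversed in sign. PC-3p-30668_98 with GA3 without replicate 1, and PC-5p-26494_119 at 78 h without 53 h replicate 1, gave no value, as both groups were then at 0. With the miR166 family taken out of the totals, the candidates' share was 0.671% with GA3, 0.253%, 0.410% and 0.393% in the late line at 6, 53 and 78 h, and 1.16% and 0.952% in the early line at 53 h and 6 h. Category 0 alone gave 0 degradome sites. Depth limits the zeros: 8 counts stand for 15.8 to 105 CPM in late-line libraries and 32.0 to 87.5 CPM in early-line ones.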
